A study of Homo sapiens with 8 samples.

Results

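CCN1, CCN2, ANKRD1, AMOTL2, LATS2, AJUBA, CRIM1, F3, THBS1 and YAP1 were examined in A549 human lung cancer cells exposed to a plant extract or to one of its constituents. The 10 genes were chosen by name, 9 because they are known transcriptional targets of the coactivator YAP and YAP1 because it encodes that coactivator, with earlier results of these data known. All 10 had a probe with a signal on each of the 8 arrays, among 19062 genes with a probe and 19041 genes tested. In 1 series, cells received the vehicle or 1.25, 5 or 20 μg/mL EEDS, the ethanol extract of Descurainia sophia seeds. In the other, they received the vehicle or 3.75, 15 or 60 nM helveticoside, a cardiac glycoside from those seeds, which as a class inhibit the sodium pump. Each agent had its own vehicle array, the RNA of 3 cultures was pooled for each array, and each dose had 1 array. The labels give 48 h of incubation with the drug, whereas the study's methods give a shorter exposure, and every group shared the A549 background, an established line from a human lung carcinoma.

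YAP and its paralogue TAZ are coactivators that bind TEAD transcription factors on DNA. The Hippo pathway restrains them: the kinases MST1 and MST2 activate LATS1 and LATS2, which phosphorylate YAP and so keep it out of the nucleus. CCN1 and CCN2, matrix-associated signaling proteins also known as CYR61 and CTGF, and ANKRD1, a nuclear ankyrin repeat protein, are the genes most often used to read out YAP activity. LATS2, AMOTL2 and AJUBA are targets that act on the pathway in turn, and all of these genes can also respond to other factors, such as AP-1 and SRF.

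The bases before the start site are shown for CCN2, ANKRD1 and AMOTL2. They are among the genes whose windows held the core motif of TEAD factors, the factors through which YAP acts on DNA. Promoter windows of 250 bases were available in RefSeq (GRCh38.p14) for 8 of the 10 genes, with CCN1 and CRIM1 as the exceptions, and gave 10 windows because AMOTL2 and AJUBA had more than 1 start site. Capitals mark the TEAD core GGAATG, searched on both strands, and all windows are written from 5′ to 3′ on the strand of the gene. The windows of CCN2 (chr6:131951373-131951622, minus strand), ANKRD1 (chr10:90921088-90921337, minus strand) and AMOTL2 at its second start site (chr3:134374448-134374697, minus strand) read as follows.
CCN2: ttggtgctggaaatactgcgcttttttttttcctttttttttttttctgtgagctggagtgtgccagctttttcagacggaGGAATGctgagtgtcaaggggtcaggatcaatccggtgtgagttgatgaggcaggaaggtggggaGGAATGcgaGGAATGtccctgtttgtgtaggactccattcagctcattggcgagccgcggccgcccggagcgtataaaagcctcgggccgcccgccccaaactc
ANKRD1: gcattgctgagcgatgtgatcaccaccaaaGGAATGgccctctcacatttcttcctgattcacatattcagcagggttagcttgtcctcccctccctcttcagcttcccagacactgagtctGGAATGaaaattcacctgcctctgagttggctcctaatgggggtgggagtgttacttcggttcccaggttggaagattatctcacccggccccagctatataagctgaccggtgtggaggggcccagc
AMOTL2: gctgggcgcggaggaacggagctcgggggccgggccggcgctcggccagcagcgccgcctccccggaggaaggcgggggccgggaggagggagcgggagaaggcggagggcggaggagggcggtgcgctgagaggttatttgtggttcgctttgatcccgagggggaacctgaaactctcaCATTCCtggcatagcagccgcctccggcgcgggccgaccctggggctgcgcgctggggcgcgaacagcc
CCN2 had 3 matches, which began 169, 104 and 95 bases before the start site. ANKRD1 had 2 matches, 220 and 128 bases before it. The match of AMOTL2 lay on the opposite strand. AJUBA at its second start site, THBS1 and YAP1 had 1 match each, so 6 of the 10 windows, from 6 of the 8 genes, held the motif. No match was present in the windows of LATS2 and F3 or at the first start sites of AMOTL2 and AJUBA. Among 35116 promoter windows of the same length, 11.89% held at least 1 match, 0.9397% at least 2 and 29 windows at least 3. The AP-1 motif (TGACTCA or TGAGTCA) was present in 4.203% of all windows and in 1 of the 10 windows, that of F3. The CArG box, the site of SRF, was present in 1.159% of all windows and in 0 of these 10. A match describes the letters of the window and does not show that a factor was bound.

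Gene expression was measured as the intensity of 1-colour Agilent arrays, and levels are given as log2 of the quantile-normalized intensity. The median signal of the probe spots ranged from 182 to 278 over a local background of 27 to 34, and no spot was saturated. Of the 10 genes, 9 were well above background on all 8 arrays, and ANKRD1 was on 7. The log2 levels of spots carrying the same probe, for probes with at least 5 spots, had a median SD of 0.0687 to 0.0852 within an array, which covers spotting and scanning error only. All 9 measured markers of A549 and lung epithelium were well above background on every array, with a summed log2 level of 20.2 on the EEDS vehicle and 19.4 at 20 μg/mL, and 20.1 and 19.1 for helveticoside at 60 nM. Of the fibroblast markers 1 to 2 of 6 passed, of the endothelial markers 1 of 5 and of the blood cell markers 2 to 3 of 4. The summed log2 level of the blood cell markers was 11.5 on the EEDS vehicle and 10.2 at 20 μg/mL, and 11.4 and 9.57 for helveticoside at 60 nM. For the fibroblast markers it was 8.56 and 9.30 with EEDS and 8.22 and 8.75 with helveticoside, and for the endothelial markers it lay between 7.28 and 7.99 on all arrays. The part of these differences in the results was not tested. Because RNA came from whole cultures, fewer responding cells and less RNA per cell cannot be told apart.

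With EEDS, 9 of the 10 genes were above the vehicle at the lowest dose and 10 at the middle and top doses, and with helveticoside the counts were 8, 9 and 10. The median log2 ratio of all genes ran from -0.036 to 0.0204 across the doses, so a value above the vehicle by any amount is common. At the top doses the highest ratios to the vehicle were those of CCN1, ANKRD1 and CCN2. At 20 μg/mL EEDS, the median log2 ratio of the 10 genes to the vehicle was 2.52, while the median of all genes was 0.02. At 60 nM helveticoside the medians were 2.35 and -0.0039. No gene of the 10 was more than 2-fold lower than its vehicle at any dose.

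**Figure D1:**
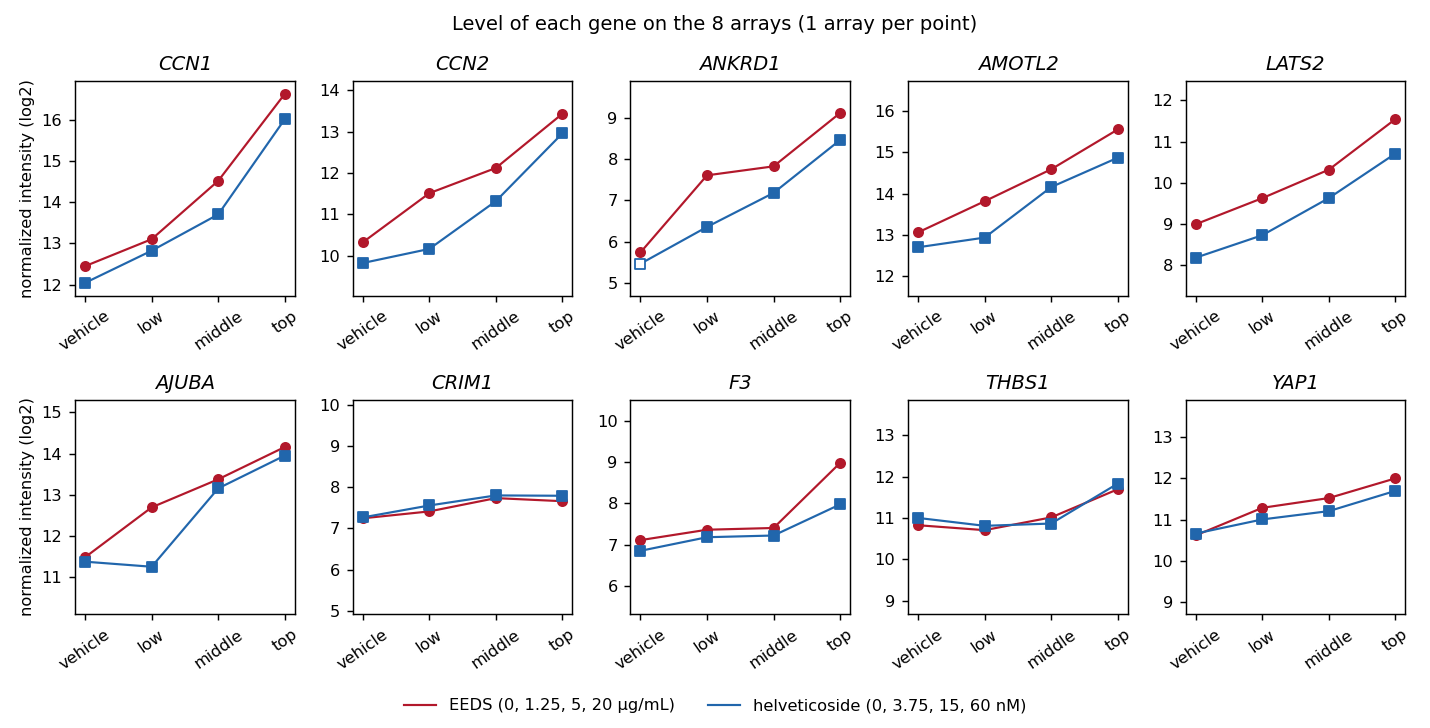
Level of each of the 10 genes (log2 normalized intensity, vertical axis, the same span in each panel) on the vehicle and at the low, middle and top dose of EEDS (red) or helveticoside (blue), with 1 array per point and no error bars because no dose was repeated. The open square marks ANKRD1 on the helveticoside vehicle, where it was not well above background. CCN1 spanned 12.45 to 16.62 with EEDS and 12.05 to 16.01 with helveticoside, whereas CRIM1 stayed between 7.25 and 7.80 on the 8 arrays.

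CCN1, a secreted protein of the CCN family that binds integrins, had log2 levels of 12.45 on the EEDS vehicle and 13.10, 14.52 and 16.62 at 1.25, 5 and 20 μg/mL. Its log2 levels in the helveticoside series were 12.05 on the vehicle and 12.83, 13.70 and 16.01 at 3.75, 15 and 60 nM. Both series climbed at each step, with the widest gap before the top dose. CCN1 was thus 18.03-fold above the vehicle at the top dose of EEDS and 15.6-fold at that of helveticoside. Its log2 ratio ranked 38 from the highest among 19041 genes at 20 μg/mL and 50 at 60 nM. At the middle dose, 49.5% of the top log2 ratio had been reached with EEDS and 41.8% with helveticoside.

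CCN2, or connective tissue growth factor, had log2 levels of 10.32 on the EEDS vehicle and 11.51, 12.12 and 13.44 at the 3 doses. With helveticoside the log2 levels of CCN2 were 9.82 on the vehicle and 10.16, 11.32 and 12.96. Every dose of either agent was above its own vehicle, and at the lowest dose the log2 ratio was 1.19 with EEDS against 0.34 with helveticoside. At the top doses CCN2 was 8.67-fold and 8.83-fold above the vehicle.

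ANKRD1 had log2 levels of 5.74 on the EEDS vehicle and 7.61, 7.83 and 9.12 at the 3 doses of EEDS. Its log2 levels with helveticoside were 6.36, 7.18 and 8.46, and its probe was not well above background on that vehicle, at a log2 level of 5.47. The ratios of ANKRD1 to that vehicle are therefore given as lower bounds. ANKRD1 was 10.4-fold above the vehicle at 20 μg/mL and, with the processing used here, at least 7.53-fold above it at 60 nM. With EEDS more of its log2 ratio was present at the lowest dose than for any other of the 10 genes, 55.3% of that at the top dose. With the signal as scanned, without background subtraction, the top log2 ratios of ANKRD1 were 2.20 and 1.96, and with the authors' table that of helveticoside was 1.79, so the bound does not hold under other treatments of the background.

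AMOTL2 encodes a scaffold of the angiomotin family that binds YAP. The log2 levels of AMOTL2 were 13.06, 13.82, 14.59 and 15.55 from the vehicle to 20 μg/mL EEDS, and 12.70, 12.94, 14.16 and 14.87 from the vehicle to 60 nM helveticoside. It was 5.63-fold above the vehicle at the top dose of EEDS and 4.50-fold at that of helveticoside.

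LATS2, the kinase that phosphorylates YAP, had log2 levels of 8.998, 9.63, 10.32 and 11.55 from the vehicle to 20 μg/mL EEDS. In the helveticoside series the log2 levels of LATS2 were 8.19, 8.73, 9.63 and 10.71. Both series rose by similar amounts from unequal starts, since the vehicles differed by -0.81 on the log2 scale, helveticoside minus EEDS. LATS2 was 5.85-fold and 5.75-fold above its own vehicle at the top doses. Against the vehicle of the other series, its top log2 ratio became 3.36 for EEDS and 1.71 for helveticoside.

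AJUBA, a LIM domain protein that restrains the LATS kinases, had log2 levels of 11.49, 12.70, 13.38 and 14.16 from the vehicle to 20 μg/mL EEDS. Its log2 levels with helveticoside were 11.38, 11.26, 13.16 and 13.95. The extract array at the lowest dose was well above its vehicle, while the helveticoside array at the lowest dose was slightly below its own, and the widest step with helveticoside, 1.90 on the log2 scale, lay between 3.75 and 15 nM, followed by 0.79 from 15 to 60 nM. At the top doses AJUBA was 6.37-fold and 5.94-fold above the vehicle.

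YAP1 itself was measured on 10 spots per array, whose log2 signals had an SD of 0.0294 to 0.0609. The log2 levels of YAP1 were 10.62, 11.29, 11.52 and 12.00 from the vehicle to 20 μg/mL EEDS, and 10.66, 11.01, 11.21 and 11.70 from the vehicle to 60 nM helveticoside. Each step went up in both series. At the top doses YAP1 was 2.61-fold and 2.05-fold above the vehicle, a smaller difference than those of the 6 genes above.

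F3, tissue factor, the cell surface starter of blood coagulation, had log2 levels of 7.11, 7.36, 7.40 and 8.98 from the vehicle to 20 μg/mL EEDS and 6.85, 7.18, 7.22 and 7.97 from the vehicle to 60 nM helveticoside. The lower doses lay close together, and the step from the middle to the top dose was 1.58 with EEDS and 0.75 with helveticoside on the log2 scale. At the middle dose, 15.7% and 33.0% of the top log2 ratio had been reached.

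THBS1, thrombospondin-1, a matrix glycoprotein that inhibits angiogenesis, had log2 levels of 10.82, 10.70, 11.01 and 11.70 from the vehicle to 20 μg/mL EEDS and 11.001, 10.81, 10.87 and 11.83 from the vehicle to 60 nM helveticoside. The array of each top dose stood above the other 3 of its series, which lay within a narrow range. A second probe of THBS1 gave log2 ratios at the top dose of 1.503 with EEDS and 0.93 with helveticoside, where the brighter probe gave 0.87 and 0.83.

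CRIM1, a transmembrane protein with cysteine-rich repeats that binds BMPs, had log2 levels of 7.25, 7.41, 7.74 and 7.66 from the vehicle to 20 μg/mL EEDS and 7.27, 7.56, 7.80 and 7.79 from the vehicle to 60 nM helveticoside. Its log2 ratios to the vehicle stayed at or below 0.53 at every dose.

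**Figure D2:**
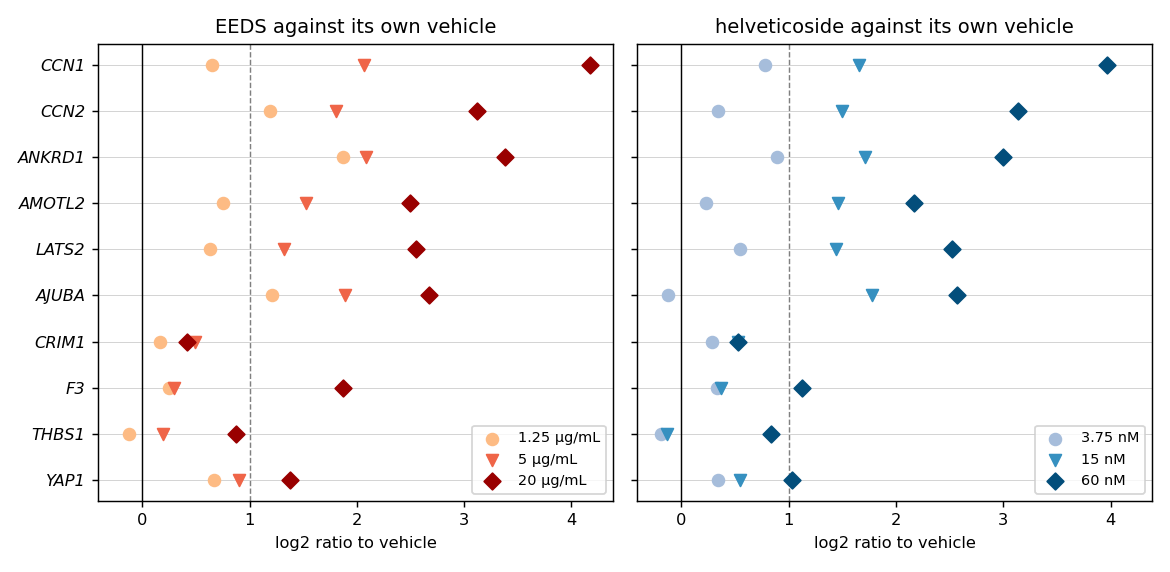
Log2 ratio of each gene to the vehicle of its own series (horizontal axis) at the 3 doses of EEDS (left) and helveticoside (right), with 1 array per point. The dashed line marks a ratio of 2-fold. ANKRD1 is drawn at its measured value, although with helveticoside only a lower bound is given, which depends on the processing. At the top doses 8 of the 10 genes lay beyond the line with either agent, and THBS1 and CRIM1 did not.

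The number of these genes more than 2-fold above the vehicle grew with dose. With EEDS it was 3 of 10 at 1.25 μg/mL, where 4.2% of all genes were past this fold, 6 of 10 at 5 μg/mL (7.34% of all genes) and 8 of 10 at 20 μg/mL (13.3%). With helveticoside it was 0 of 10 at 3.75 nM (3.37%), 6 of 10 at 15 nM (7.08%) and 8 of 10 at 60 nM (10.8%). Of these 8, YAP1 and F3 were only just past the fold, at log2 ratios of 1.03 and 1.12. With the authors' table they were below it, at 0.99 and 0.72. The genes past the fold at 1.25 μg/mL EEDS were CCN2, ANKRD1 and AJUBA. The comparison of the vehicles involves no drug. It put 5.75% of all genes more than 2-fold higher on the helveticoside vehicle, and 0 of the 10. More than 2-fold lower on that vehicle were 885 of the 19041 genes and 0 of the 10. Between the vehicles the 10 genes differed by -0.81 to 0.18 on the log2 scale, helveticoside minus EEDS, 3 of them being higher on the helveticoside vehicle, while the SD of this difference over all genes was 0.646. With 1 array per dose these counts have no test.

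Whether the genes followed dose was tested with a line over the dose steps. Of the 10 genes, 7 rose with EEDS and the same 7 rose with helveticoside, namely CCN1, CCN2, ANKRD1, AMOTL2, LATS2, AJUBA and YAP1, and none fell. Over all genes, limma called 7.25% rising and 7.85% falling with EEDS, and 5.47% rising and 5.8% falling with helveticoside, at a Benjamini-Hochberg adjusted p below 0.05. The steepest slope was that of CCN1, at 1.39 ± 0.21 log2 units per dose step with EEDS (SE, adjusted p = 0.0191) and 1.28 ± 0.21 with helveticoside (adjusted p = 0.0273). CCN2 had slopes of 0.996 ± 0.14 (adjusted p = 0.0176) and 1.06 ± 0.14 (adjusted p = 0.0200). For ANKRD1 they were 1.04 ± 0.15 (adjusted p = 0.0171) and 0.98 ± 0.15 (adjusted p = 0.0231), the latter resting on a vehicle value near background.

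The targets that feed back on the pathway rose as well. AMOTL2 rose by 0.83 ± 0.09 log2 units per step with EEDS (adjusted p = 0.0133) and 0.77 ± 0.09 with helveticoside (adjusted p = 0.0169). LATS2 had slopes of 0.83 ± 0.09 (adjusted p = 0.0133) and 0.85 ± 0.09 (adjusted p = 0.0165). AJUBA had slopes of 0.87 ± 0.17 (adjusted p = 0.0308) and 0.96 ± 0.17 (adjusted p = 0.0301). The slopes of YAP1 were the smallest of the 7, at 0.44 ± 0.06 (adjusted p = 0.0152) and 0.33 ± 0.06 (adjusted p = 0.0282).

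F3, THBS1 and CRIM1 did not pass the test with either agent. The slope of F3 was 0.57 ± 0.17 with EEDS (adjusted p = 0.0758) and 0.34 ± 0.17 with helveticoside (adjusted p = 0.244). Those of THBS1 were 0.29 ± 0.14 (adjusted p = 0.220) and 0.26 ± 0.14 (adjusted p = 0.311), and those of CRIM1 were 0.16 ± 0.07 (adjusted p = 0.179) and 0.18 ± 0.07 (adjusted p = 0.148). F3 and THBS1 differed from the vehicle mainly at the top dose, a shape that a line over dose steps describes poorly. With dose as a linear number, F3 and THBS1 passed with EEDS, beside CCN1 and LATS2, whereas with helveticoside CCN1 alone passed. F3 also passed with EEDS under other treatments of the background, at an adjusted p of 0.0387 after normexp correction.

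The test borrowed its error from the scatter about the lines, since no dose was repeated, and the calls rested on single arrays. With the 4 arrays of a series alone, 0 of the 10 genes were called for either agent, although 7 with EEDS and 8 with helveticoside had an unadjusted p below 0.05, and limma called 0 of all genes, with 5339 and 4936 at an unadjusted p below 0.05. With EEDS, the count of 7 fell to 0 without the EEDS vehicle array or the array at 20 μg/mL, with 7 of the 10 at an unadjusted p below 0.05 in both cases. With helveticoside it fell to 0 without the array at 15 nM or that at 60 nM, and to 4 without the helveticoside vehicle, the array at 3.75 nM or the EEDS array at 5 μg/mL. In the settings with a count of 0, limma called none of the other genes either.

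**Figure D3:**
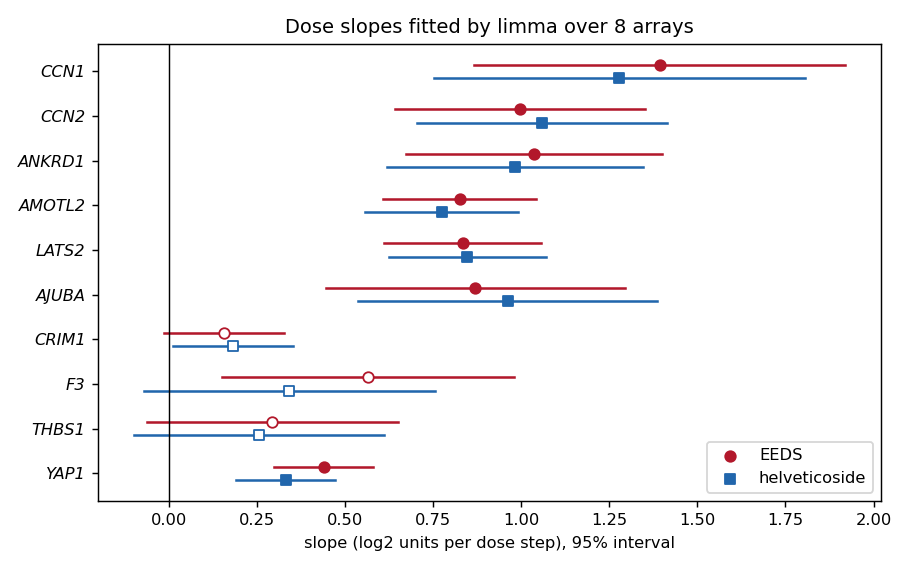
Slope of each gene per dose step (log2 units, horizontal axis) fitted by limma over the 8 arrays, with 95% intervals, for EEDS (red circles) and helveticoside (blue squares). Filled symbols passed the adjusted threshold, and open symbols did not. The intervals of the 2 agents overlapped for each gene, and CCN1 had the steepest slopes, at 1.39 and 1.28.

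The slopes of the 2 agents were compared directly, step against step, although the doses are in different units and the steps were not matched for potency. None of the 19041 genes passed in limma after Benjamini-Hochberg adjustment, and 525 had an unadjusted p below 0.05, none of the 10 among them. The difference, helveticoside minus EEDS, ran from -0.22 for F3 to 0.09 for AJUBA. For CCN1 it was -0.12 with a 95% interval of -0.86 to 0.63, so a sizeable difference in either direction is not excluded by these arrays. For LATS2 it was 0.01 (-0.30 to 0.33) and for YAP1 -0.11 (-0.31 to 0.09).

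Most of the remaining CCN genes could not be compared with CCN1 and CCN2, since CCN3 was well above background on 3 arrays and CCN4 and CCN6 on 0. Of CCN3, CCN4, CCN5 and CCN6, 0 of 4 rose or fell with either agent, and their median log2 ratio at the top dose, 0.01 with EEDS and -0.01 with helveticoside, rests largely on signals near the background. CCN5 alone was well above background on all 8 arrays, with log2 ratios of 0.27, 0.94 and 0.74 with EEDS (adjusted p = 0.0910) and 0.44, 0.86 and 0.82 with helveticoside (adjusted p = 0.104). It was above its vehicle at every dose of both agents without passing the test.

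Among 22 kinases, adaptors and activators of the Hippo pathway, 6 had a rising trend with EEDS and 4 with helveticoside, and none had a falling trend. Of all genes, 7.25% rose and 7.85% fell with EEDS, and 5.47% rose and 5.8% fell with helveticoside. The median log2 ratio of the 22 at the top dose was 0.38 and 0.20. RASSF1, a scaffold that binds the MST kinases, had log2 ratios of 1.66, 2.66 and 3.85 with EEDS (adjusted p = 0.0144) and 0.22, 1.72 and 3.22 with helveticoside (adjusted p = 0.0200). FRMD6, an upstream activator, had log2 ratios of 0.87, 2.14 and 3.53 (adjusted p = 0.0165) and 0.07, 0.75 and 2.37 (adjusted p = 0.0409). Together with SAV1, the MST partner, named after its values were seen, these were the 3 genes called with both agents. STK3, which encodes MST2, rose with EEDS to a log2 ratio of 1.32 (adjusted p = 0.0371) and stood at 1.12 with helveticoside (adjusted p = 0.0586). PTPN14, a phosphatase that binds YAP, rose with EEDS to 1.39 (adjusted p = 0.0427) and stood at 0.93 with helveticoside (adjusted p = 0.127), but its vehicles differed by as much, 1.39 on the log2 scale, helveticoside minus EEDS.

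Of 9 transcription partners of YAP and TAZ, 1 rose with each agent, VGLL4, a cofactor that competes with YAP for TEAD. A count of 1 in 9 is near the share of all genes rising, 7.25% with EEDS and 5.47% with helveticoside. VGLL4 had a log2 ratio at the top dose of 0.95 with EEDS (adjusted p = 0.0284) and 0.77 with helveticoside (adjusted p = 0.0473). The median of the 9 was 0.45 and 0.31. WWTR1, which encodes TAZ, stood at 1.54 and 1.28 without passing the test (adjusted p = 0.0962 and 0.176). TEAD1 stood at 0.85 and 0.57 (adjusted p = 0.156 and 0.275), and VGLL3 at -1.03 and -1.28 (adjusted p = 0.103 and 0.0763).

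A further 22 genes known as YAP targets had a median log2 ratio at the top dose of 1.16 with EEDS and 1.03 with helveticoside, below that of the 10 genes and above that of all genes. With EEDS 7 of the 22 rose and 1 fell, and with helveticoside 5 rose and 1 fell, 4 of the rises being shared. The shares over all genes were 7.25% rising and 7.85% falling with EEDS, and 5.47% and 5.8% with helveticoside. BIRC3, an inhibitor of apoptosis and a target of NF-kappa B too, reached a log2 ratio at the top dose of 4.35 with EEDS (adjusted p = 0.0175) and 3.48 with helveticoside (adjusted p = 0.0279). AREG, the EGFR ligand amphiregulin, reached 3.77 (adjusted p = 0.00718) and 2.73 (adjusted p = 0.0147). GADD45A, a stress-induced gene that p53 also drives, rose with EEDS to 4.21 (adjusted p = 0.0327) and stood at 3.53 with helveticoside (adjusted p = 0.0553). The gene that fell was CCDC80, a matrix protein named here after its values were seen, with log2 ratios at the top dose of -2.595 (adjusted p = 0.0309) and -2.48 (adjusted p = 0.0436).

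Of 20 genes of the actin cytoskeleton under SRF and its MRTF coactivators, these factors included, 0 rose and 2 fell with each agent, with a median log2 ratio at the top dose of 0.12 and 0.16. Counts of this size are near the shares of all genes called, and the difference from the YAP targets was not tested. Those that fell were TGFB1I1, a LIM protein of focal adhesions, at -1.54 (adjusted p = 0.0144) and -1.17 (adjusted p = 0.0227), and MRTFB, itself a coactivator of SRF, at -1.07 (adjusted p = 0.0418) and -1.33 (adjusted p = 0.0371). SRF itself, named after its values were seen, had log2 ratios at the top dose of 2.02 and 2.29 without passing the test (adjusted p = 0.0648 and 0.0512). It was well above background on 7 arrays. Its log2 level on the helveticoside vehicle was 5.89, where the lowest level well above background was 5.55, so the latter ratio rests on a value near background. FHL2 stood at 1.49 and 1.06 (adjusted p = 0.0625 and 0.120) and ACTA2 at -1.10 and -0.40 (adjusted p = 0.176 and 0.675). Among 10 other thrombospondins, their receptors and partners of tissue factor, 1 rose and 1 fell with each agent, with a median of 0.02 and -0.03. These counts too are near the shares of all genes, 7.25% rising and 7.85% falling with EEDS and 5.47% and 5.8% with helveticoside. TFPI2, a protease inhibitor that acts on the tissue factor complex, rose to a log2 ratio of 1.91 (adjusted p = 0.0317) and 1.92 (adjusted p = 0.0344), and THBS3 fell to -1.50 (adjusted p = 0.0200) and -1.86 (adjusted p = 0.0204).

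**Figure D4:**
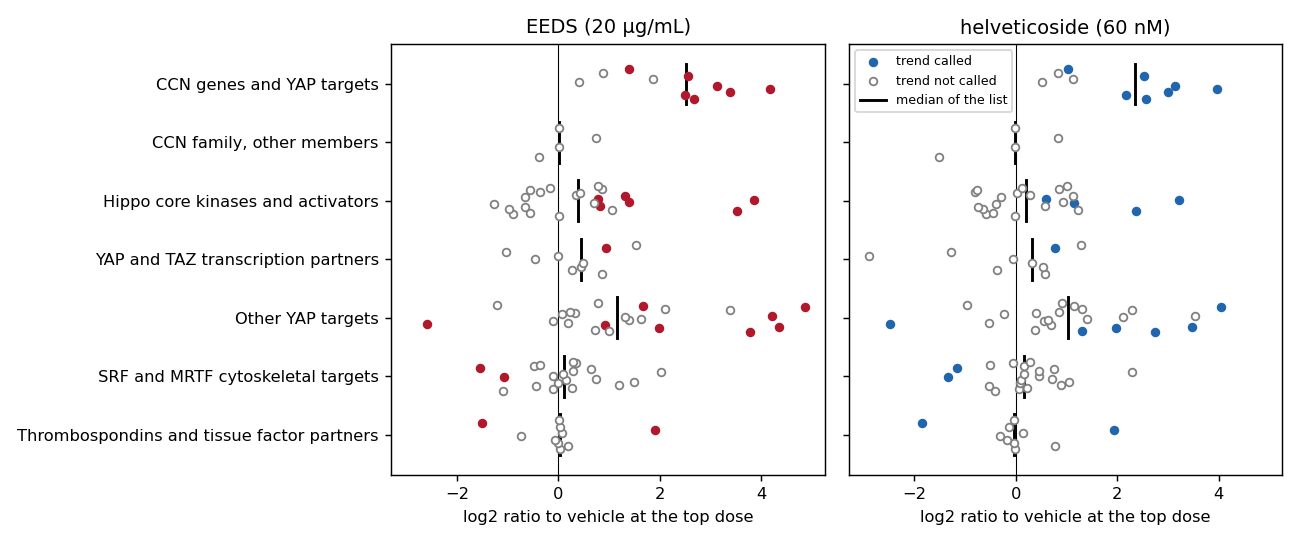
Log2 ratio to the vehicle at 20 μg/mL EEDS (left) and 60 nM helveticoside (right) for the 10 genes and the 6 lists of related genes, with 1 point per gene and a bar at the median of each list. Coloured points passed the test of the dose trend and white points did not. The median of the 10 genes, 2.52 and 2.35, lay to the right of the medians of the other lists, of which the further YAP targets had the highest at 1.16 and 1.03.

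The genes whose 6 log2 ratios lay closest to those of CCN1, among 11494 genes well above background on all arrays and measured by Euclidean distance, were FOSL1 (0.628), IL11 (0.835), UGCG (0.920), RUNX1 (1.05) and C3orf52 (1.07). CCN2 ranked 23 in closeness to CCN1. The genes closest to CCN2 were GABARAPL1 (0.565), SDC4 (0.591), EGFR (0.608), SLC19A2 (0.615) and SERTAD4 (0.621). From CCN2, AJUBA ranked 16, LATS2 57, AMOTL2 76 and CCN1 130. YAP1 and F3 ranked 873 and 970, and CRIM1 and THBS1 ranked 2743 and 2685. ANKRD1 was not ranked, since it was not well above background on all arrays.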

How the data were processed

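RNA of A549 cells, pooled from 3 cultures per condition, was hybridized to 8 Agilent 1-colour arrays in 2 series of 4. Spot intensity values from the scanner, 43118 probe spots per array, were deposited with the local background subtracted in the processed signal, and the authors added a table of intensity values that, judged from its values, is quantile-normalized within each series. The members and lists were chosen with earlier results of these data known.

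Control spots and feature outliers were removed, spots of the same probe were averaged as processed signal, and the values were quantile-normalized across all 8 arrays before log2 was taken. Values under 1.4 times the local background were set to the higher of themselves and the lowest detected signal of the array. Probes were named through their accessions (24827 of 34127 matched, RefSeq GRCh38.p14), and the brightest probe stood for each of 19062 genes. A gene was tested when it passed 1.4 times the background on at least 1 array of each series (19041 genes). Where a gene was not well above background on the vehicle, the ratio is given as a lower bound. It was taken against the lowest level well above background on that vehicle, so it depends on the processing.

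In R 4.3.3, limma 3.58.1 (with statmod 1.5.0, and with trend and robust set in eBayes) fitted an intercept and a slope per series over the dose steps with 4 residual degrees of freedom, and p-values were adjusted by Benjamini-Hochberg over all genes with a threshold of 0.05. The residuals about the lines stand for the spread between replicates, so curvature counts as error. Precision is limited by the number of arrays.

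Named genes were the 10 members, up to 4 genes per list with the largest mean log2 ratio at the top doses, up or down, among those well above background on all 8 arrays, and the 5 genes nearest to CCN1 and to CCN2. The values of 1 list gene are not reported here. Further tools were Python 3.11.15, numpy 2.4.6, pandas 2.3.3 and matplotlib 3.10.9. The alternatives covered the signal, the background correction, the scaling, the authors' table, the filter, the probe, the vehicle, the dose scale, the variance model and the arrays in the fit.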

Additional observations from a re-analysis of the deposited data

How the results depend on the processing

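The count of genes more than 2-fold above the vehicle at the top dose was 7 to 9 of 10 with EEDS and 6 to 8 with helveticoside over all alternatives, and every log2 ratio at the top dose stayed above 0. ANKRD1, with vehicle signals near the background, varied most, from 2.20 to 3.65 with EEDS and from 1.79 to 2.998 with helveticoside, and it was not tested where a gene had to be well above background on all 8 arrays. Scaling to the 75th percentile put the median of all genes at -0.36 and -0.18 at the top doses of EEDS and helveticoside. Of the 10 genes, 7 rose with each agent. The count became 4 with EEDS and 1 with helveticoside with dose as a linear number, and 0 with both when the 4 arrays of a series were fitted alone. Leaving out each array in turn gave 0 to 7 with EEDS and 0 to 6 with helveticoside. The other alternatives gave 7 to 8 and 6 to 7. F3 passed with EEDS in 6 alternatives and without the EEDS array at 5 μg/mL, and without single arrays the slope of THBS1 with helveticoside ran from -0.068 (without the array at 60 nM) to 0.51 (without the vehicle), passing in none. No slope difference between the agents was called among the 10 genes under any alternative in which it was fitted.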
